A study of Mus musculus with 2 samples.

Results

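Nkx genes encode homeodomain transcription factors related to the NK genes of the fly, and 8 of them with roles in or near the ventral neural tube were followed in embryonic mouse midbrain: Nkx1-2, Nkx2-1, Nkx2-2, Nkx2-4, Nkx2-9, Nkx6-1, Nkx6-2 and Nkx6-3. They were taken by symbol, by a rule that uses no measured value, although earlier results of these data were known when the set was put together. All 8 were found among the 43346 genes of the tables. RNA came from midbrains dissected from healthy B6NCrl mouse embryos at 10.5 days of development. There was 1 group, with no treatment and no mutant allele, and it held 2 libraries that the labels call biological replicates. Replicate 1 was made from a pool of 69 embryos and replicate 2 from a pool of 51, with males and females mixed in each. Each pool averages over whole midbrains, so no value below belongs to a single embryo or a single cell type. Levels are in TPM, in which the reads of a gene are divided by its length and each library is scaled to the same total. Of 5 midbrain identity markers 4 reached 1 TPM in both libraries, led by Otx2, which the forebrain and midbrain require, at 138 and 122.7 TPM in replicates 1 and 2. En2 fell short at 0.92 and 0.71 TPM.

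As background, Sonic hedgehog released by the floor plate and notochord patterns the ventral neural tube, and progenitor cells read its dose through homeodomain factors. Nkx2-2 and Nkx2-9 are induced by high doses and mark the progenitors next to the floor plate. Nkx6-1, a relative of Nkx6-2, is induced at lower doses and covers a broader ventral territory. Most of these proteins repress the genes of neighbouring domains by recruiting Groucho corepressors. Nkx2-1 is known from the hypothalamus and ventral forebrain and from thyroid and lung, Nkx2-4 is its closest relative, Nkx1-2 is known from the tail bud and caudal neural plate, and Nkx6-3 from the stomach and the hindbrain.

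The DNA-binding part of each protein is encoded by a homeobox of 60 codons. Codons 42 to 58 span the recognition helix, which lies in the major groove of DNA. They are shown for the highest gene, Nkx6-2, for the lowest, Nkx6-3, and for Nkx1-2 of another subgroup, to show how alike this stretch is in genes whose levels lie far apart. Codon 54, a position in the helix by which homeobox classes are told apart, is in capitals. The sequences are those of the GENCODE M21 transcripts, 5′ to 3′ on the coding strand.
Nkx6-2: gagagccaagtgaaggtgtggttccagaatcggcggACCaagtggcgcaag
Nkx6-3: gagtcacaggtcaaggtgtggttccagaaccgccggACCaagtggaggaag
Nkx1-2: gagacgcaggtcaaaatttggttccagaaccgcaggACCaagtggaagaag

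The codon in capitals was ACC in all 3 genes shown. No Nkx2 gene is among them, so neither this codon nor the likeness of the stretch is given for that subgroup. On GRCm38 the stretch lies at chr7:132597392-132597442 (minus strand) in Nkx1-2. In the 2 Nkx6 genes an intron interrupts it, and it spans chr7:139581653-139581895 (minus) in Nkx6-2 and chr8:23156356-23157617 (plus) in Nkx6-3. Over the whole homeobox of the 8 genes, 9 pairs within a subgroup shared 76.1 to 90.0% of their bases and 19 pairs from different subgroups shared 51.1 to 64.4%. Nkx2-1 and Nkx2-4 were the most alike at 90% of 180 bases, and the 3 Nkx6 pairs each shared 79.4%. The longest run of identical bases between the transcripts of any 2 members was 42 bases, between Nkx2-1 and Nkx2-9, followed by 41 bases between Nkx2-2 and Nkx2-4. Reads inside such short runs could be shared between the genes by the estimated counting. The gene counts of Nkx2-1, Nkx2-2, Nkx2-4 and Nkx2-9 were whole numbers in both libraries, so no division of reads between them shows.

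The 8 genes fell into 5 levels that spanned from undetected to among the more abundant protein-coding transcripts. Nkx6-2 was highest, at 73.19 and 50.91 TPM in replicates 1 and 2. Nkx2-9 followed, at 20.97 and 24.02 TPM. Nkx2-2, Nkx6-1 and Nkx2-1 lay together between 7.27 and 9.46 TPM, and Nkx2-4 and Nkx1-2 lay between 0.69 and 1.38 TPM. Nkx6-3 was at or near 0. On gene totals, the libraries of Nkx6-2 and Nkx2-9 did not overlap with those of any other member. The 3 middle genes could not be put in order, since their library values and their deposited credible intervals overlapped, and the same held for Nkx2-4 and Nkx1-2. With at least 1 TPM in both libraries as the meaning of detected, 6 of 8 members were detected, against 58.1% of the 21474 protein-coding genes. Nkx6-2 took 59.5% and 51.1% of the summed TPM of the 8 genes, which was 123.1 and 99.56, and Nkx2-9 took 17.0% and 24.1%. In bulk tissue, fewer cells of a type and less RNA per cell cannot be told apart, so a low level may belong to few cells.

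**Figure D1:**
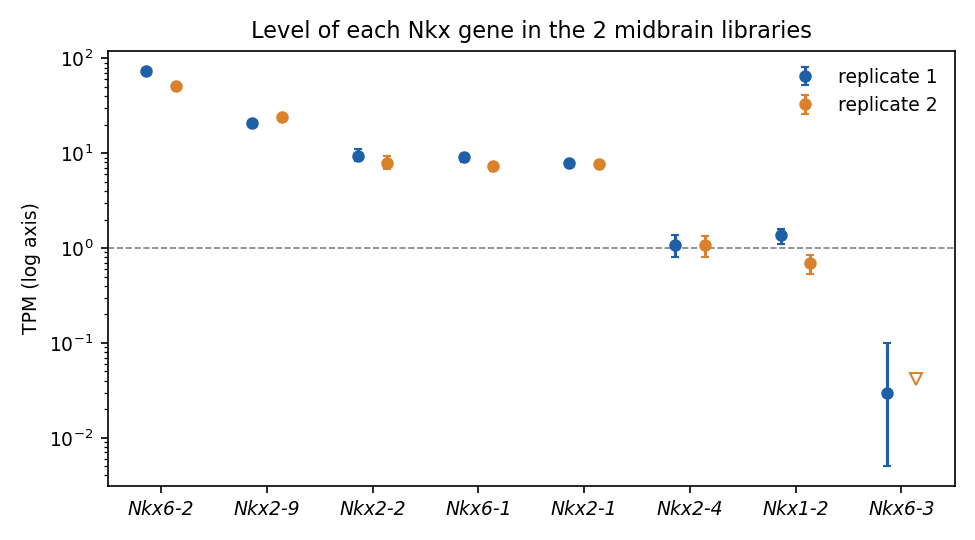
TPM on a log axis of the 8 Nkx genes, ordered by mean, with 1 point per library and bars for the deposited credible interval; the dashed line is 1 TPM and the open triangle is the level that 3 counts would give in replicate 2, where Nkx6-3 had 0 counts. Nkx6-2 at 73.19 and 50.91 TPM and Nkx2-9 at 20.97 and 24.02 TPM stand above 3 genes near 8 TPM, and Nkx6-3 lies below all others.

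Nkx6-2, a repressor of the Nkx6 subgroup that acts in the ventral neural tube and later in oligodendrocytes, lies at chr7:139579376-139582797 (minus strand). It had 3427.96 expected counts in replicate 1 and 2679.13 in replicate 2, where an expected count is an estimated number of reads. Its mean level was 62.05 TPM ± 15.8 (SD, n = 2), and its credible intervals were 68.9 to 74.5 TPM and 47.9 to 52.3 TPM. Replicate 1 was the higher library, and the intervals did not overlap. Among protein-coding genes it stood at the 88.9th percentile in replicate 1 and the 84.6th in replicate 2.

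Nkx6-1, which in the neural tube is needed for motor neuron and ventral interneuron progenitors, lies at chr5:101658139-101664996 (minus strand). It had 532 and 489 expected counts, or 9.06 and 7.27 TPM, with a mean of 8.165 TPM ± 1.27 (SD, n = 2). Its credible intervals of 8.15 to 9.66 TPM and 6.52 to 7.80 TPM left replicate 1 higher. Nkx6-2 exceeded its relative Nkx6-1 by 8.08 times in replicate 1 and 7 times in replicate 2, so the gap between the genes was wider than the gap between the libraries of either. The deposited length of the single Nkx6-1 transcript was 2100 bases, and in the later annotation used for names it is 3138 bases. Reads in the added bases would not have been counted for Nkx6-1.

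Nkx6-3, the third gene of this subgroup, lies at chr8:23153269-23158948 (plus strand). It had 2 expected counts in replicate 1, listed as 0.03 TPM, and 0 in replicate 2. A count of 3, the most that an observed 0 allows, would give 0.0418 TPM in replicate 2. Nkx6-3 was therefore not detectable in replicate 2 at this depth, which limits its level there to that value.

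Nkx2-9, a target of Hedgehog signalling in the progenitors beside the floor plate, lies at chr12:56611389-56613284 (minus strand). It had 717 and 940 expected counts, or 20.97 and 24.02 TPM, with a mean of 22.49 TPM ± 2.16 (SD, n = 2). Replicate 2 was the higher library, unlike for Nkx6-2. Its credible intervals, 19.1 to 22.1 TPM and 22.1 to 25.2 TPM, met at 1 value. Its percentile among protein-coding genes was 70.6 and 74.0.

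Nkx2-2, which marks the same progenitors and specifies neurons that arise there, lies at chr2:147177546-147194243 (minus strand). It had 418 and 344 expected counts, or 9.46 and 7.82 TPM, with a mean of 8.64 TPM ± 1.16 (SD, n = 2). Its credible intervals, 8.29 to 11.0 TPM and 6.74 to 9.28 TPM, overlapped between the libraries. Nkx2-9 exceeded Nkx2-2 by 2.22 times in replicate 1 and 3.07 times in replicate 2. The level of Nkx2-2 relative to Nkx6-1 was 1.04 and 1.08.

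Nkx2-1, the factor best known from the hypothalamus, lies at chr12:56531958-56536908 (minus strand). It had 514 and 572 expected counts, or 7.93 and 7.77 TPM, with a mean of 7.85 TPM ± 0.113 (SD, n = 2). The libraries differed by less than the width of either credible interval, 7.12 to 8.47 TPM in replicate 1 and 7.01 to 8.27 TPM in replicate 2. Its relative Nkx2-4, at chr2:147083316-147085445 (minus strand), had 52 and 59 expected counts, or 1.09 and 1.08 TPM. Nkx2-1 thus exceeded Nkx2-4 by 7.28 times in replicate 1 and 7.19 times in replicate 2. The lower credible bounds of Nkx2-4, 0.801 and 0.808 TPM, were below the 1 TPM used for detection.

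Because Nkx2-1 and Nkx2-4 are known from the hypothalamus, markers of that region and of the ventral forebrain were read beside them. Of 8 such markers 4 were detected, with a summed level of 21.58 TPM in replicate 1 and 23.11 TPM in replicate 2. Foxd1, a forkhead factor of the hypothalamus and other tissues, stood at 5.78 and 5.76 TPM, and Fezf1, a zinc finger factor of the forebrain and hypothalamus, stood at 3.87 and 5.66 TPM. The eye field and hypothalamus homeobox gene Rax was at 2.99 and 5.73 TPM. Vax1, a homeobox gene of the optic stalk and ventral forebrain, was close to 0 at 0.04 and 0.09 TPM. The part of neighbouring forebrain tissue in the Nkx2-1 level was not tested. For the other known sites of Nkx2-1, 1 of 7 markers of thyroid, lung and foregut endoderm was detected, and their summed level was 4.90 and 6.12 TPM. Of this sum Hhex, a homeobox gene also active in endothelium and blood, held 4.54 and 5.82 TPM. The lung surfactant gene Sftpc was listed at 0 and 0.04 TPM.

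Nkx1-2, a gene of the tail bud and of caudal neural progenitors, lies at chr7:132594878-132599637 (minus strand). It had 128 and 73 expected counts, or 1.38 and 0.69 TPM, with a mean of 1.035 TPM ± 0.488 (SD, n = 2). Its credible intervals of 1.10 to 1.57 TPM and 0.528 to 0.837 TPM did not overlap, and replicate 1 was higher. Of 6 tail bud markers, 1 was detected in both libraries: Cyp26a1, an enzyme that degrades retinoic acid, at 1.36 and 2.40 TPM. The caudal genes Cdx2 and Cdx4 and the presomitic gene Msgn1 had 0 counts in both. The mesoderm factor T, a defining gene of the tail bud, was at 0.88 and 0.49 TPM. The summed level of this list was 2.60 and 3.44 TPM, and its increase lay mostly in Cyp26a1. T was lower in replicate 2 by TPM, but it had only 36 and 32 expected counts. Its counts scaled for depth, replicate 2 over replicate 1, had a ratio of 0.823. The interval for counting error, 0.494 to 1.36, included 1, so a fall of T beyond that error was not shown. The part of tail bud cells in the Nkx1-2 level was not tested.

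None of the 6 other NK genes in the tables reached 1 TPM in either library. Nkx2-3, known from gut and spleen, was at 0.36 and 0.18 TPM. Nkx3-2, known from the axial skeleton, was at 0.34 and 0.15 TPM. Nkx1-1, the relative of Nkx1-2, was at 0.09 and 0.05 TPM. The cardiac gene Nkx2-5 and the pharyngeal gene Nkx2-6 had 0 counts in both libraries.

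Of the 8 genes, 3 had more than 1 annotated transcript. Nkx6-2 reads were divided between a longer transcript of 4 exons and 1907 bases, at 47.62 and 30.70 TPM, and a shorter one of 3 exons and 1299 bases, at 25.56 and 20.21 TPM. The deposited isoform share of the longer transcript was 65.07% and 60.30% (mean 62.68% ± 3.4, SD, n = 2), so it was the larger in both libraries. The transcripts have the same coding sequence of 277 codons. They differ after it: in the longer transcript the stop codon lies 569 bases before the last exon junction, and the annotation gives it the type nonsense-mediated decay, the pathway that destroys RNAs with a stop far ahead of a junction. All 1299 bases of the shorter transcript are contained in the longer one, which has 608 bases of its own, so the split rests on reads in those bases. The last exon of the longer transcript, 246 bases at chr7:139579376-139579621, lies wholly within an exon of Inpp5a on the opposite strand. Inpp5a, which encodes an inositol phosphate phosphatase, was at 15.88 and 14.35 TPM. Whether the libraries kept strand is not known, so reads of Inpp5a and of this exon cannot be told apart. The remaining 362 of the 608 bases are outside the exons of Inpp5a. The shorter transcript alone, the one typed protein-coding, was above Nkx2-9 in replicate 1 and below it in replicate 2. Nkx2-9 stood at 20.97 and 24.02 TPM, so on that measure Nkx6-2 and Nkx2-9 could not be put in order.

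Nkx2-2 had 4 annotated transcripts, 2 of them coding. The longer coding transcript, of 273 codons, took 68.81% and 54.54% of the gene's TPM, at 6.51 and 4.26 TPM. The shorter, of 248 codons, took 4.80% and 13.38%, on only 12.71 and 33.52 expected counts. Both hold the whole homeobox and share their first 190 codons, after which they read different exon sequence. The site of the split is printed because it is where the products part: the last 30 shared coding bases are in lower case and the next 30 bases of each are in capitals.
Nkx2-2, 273 codons: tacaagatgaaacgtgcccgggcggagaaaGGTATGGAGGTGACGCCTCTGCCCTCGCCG
Nkx2-2, 248 codons: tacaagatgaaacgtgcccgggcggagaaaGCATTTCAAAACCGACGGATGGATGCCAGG

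The first of these is unbroken in the genome at chr2:147184217-147184276 (GRCm38, minus strand), while the second jumps to a downstream exon and spans chr2:147177916-147184276. The 2 noncoding transcripts of Nkx2-2 begin upstream and together took 26.4% and 32.09% of its TPM. They held only 19 and 21 expected counts, or 4.546% and 6.105% of the gene's counts, and weigh more in TPM because they are 340 and 378 bases long. The 2 coding transcripts alone stood at 6.96 and 5.31 TPM. On that measure Nkx2-2 was below Nkx6-1 and Nkx2-1 in both libraries, whereas on the gene total it was above them. The opposite-strand gene Nkx2-2os shares 278 exon bases with Nkx2-2 and was listed at 0 TPM in both libraries.

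Nkx2-1 was mostly read from a transcript of 2 exons and 2242 bases, at 7.04 and 7.09 TPM, which was 88.73% and 91.25% of the gene. A transcript of 3 exons and 2809 bases, which starts farther upstream, took 11.27% and 8.75%. Both encode the same 372 codons. These shares moved less between the libraries than those of the 273-codon transcript of Nkx2-2.

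**Figure D2:**
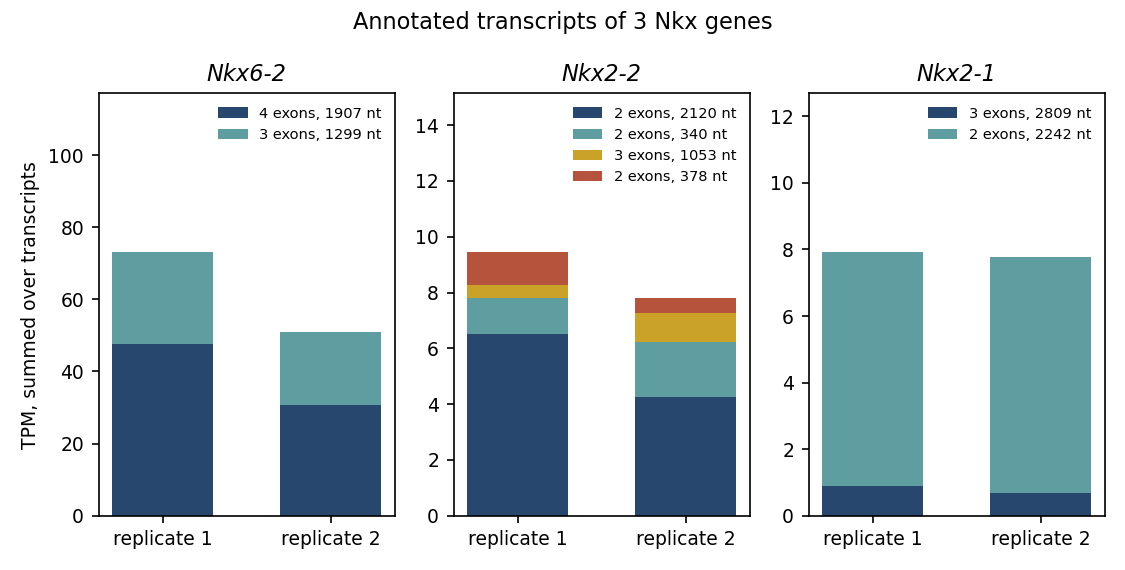
TPM of each annotated transcript of Nkx6-2, Nkx2-2 and Nkx2-1, stacked to the gene total, with 1 bar per library and an axis of its own for each gene. The 4-exon transcript is the larger part of Nkx6-2 at 47.62 and 30.70 TPM, and the 2-exon transcript makes up nearly the whole of Nkx2-1 at 7.04 and 7.09 TPM.

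Of these genes 4 sit in a pair of clusters that each join an NK2 gene of higher level to one of lower level. Nkx2-4 and Nkx2-2 lie 92.1 kb apart on chromosome 2, and Nkx2-1 and Nkx2-9 lie 74.5 kb apart on chromosome 12. Nkx2-2 exceeded Nkx2-4 by 8.68 times in replicate 1 and 7.24 times in replicate 2. Nkx2-9 exceeded Nkx2-1 by 2.64 and 3.09 times. Each cluster is followed by a paired box gene of the axial skeleton and pharynx. Pax1, 168 kb beyond Nkx2-2, was at 0.04 and 0.13 TPM. Pax9, 78.5 kb beyond Nkx2-9, was at 0.47 and 0.53 TPM. On the other side, the RNA exonuclease gene Xrn2 next to Nkx2-4 was at 78.18 and 74.81 TPM, and Mbip next to Nkx2-1 was at 40.54 and 41.51 TPM. The levels of the Nkx genes thus differed both from one another and from their direct neighbours. Nkx6-2 stood above its coding neighbours Pwwp2b, 309 kb away at 3.93 and 3.79 TPM, and Cfap46, 18.2 kb away at 0.21 and 0.24 TPM. It was also above Inpp5a, the coding gene that overlaps it, at 15.88 and 14.35 TPM. Nkx6-1 stood above Gpat3, 759 kb away at 0.62 and 0.97 TPM, and Cds1, 100 kb away at 0.64 and 0.68 TPM. For Nkx6-3 the reverse held: Ank1, a spectrin anchor, was at 1.63 and 1.42 TPM and Gpat4, an enzyme of glycerolipid synthesis, at 86.85 and 78.38 TPM. Nkx1-2 lies within the span of Fgfr2, at 85.20 and 87.25 TPM, on the same strand and without sharing exon bases with it. Whether unspliced Fgfr2 RNA adds to the Nkx1-2 counts was not tested. Nkx1-2 is flanked by Oat at 120.7 and 123.2 TPM and Lhpp at 17.45 and 17.43 TPM.

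The Hedgehog signal that several of these genes read was represented from ligand to transcription factors. All 14 genes of the Hedgehog list were detected, with a median of 10.44 TPM against 8.008 TPM for the 8 Nkx genes. The ligand Shh was at 6.40 and 6.52 TPM. Of the receptors and coreceptors, Ptch1, which is itself induced by the pathway, was at 18.84 and 18.25 TPM, the signal transducer Smo at 39.64 and 41.84 TPM and Gas1 at 41.57 and 42.09 TPM. Hhip, a decoy receptor, was the lowest of the list by mean, at 6.01 and 5.20 TPM. Among the Gli transcription factors, Gli3, the main repressor, stood at 29.02 and 28.38 TPM. Gli1, an activator and target, stood at 5.92 and 7.97 TPM. Sufu, which holds Gli proteins in check, led the list by mean, at 44.47 and 41.98 TPM, with Gas1 slightly above it in replicate 2.

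Genes that share the ventral territory of the Nkx genes were detected in 8 of 9 cases, with a median of 6.625 TPM. The floor plate factor Foxa2 was at 8.82 and 10.29 TPM, and Lmx1a, which marks dopaminergic progenitors and the roof plate, led at 15.79 and 12.78 TPM. Olig2, a factor of motor neuron and oligodendrocyte progenitors, was at 6.51 and 6.74 TPM. Neurog3 was the exception, at 0.66 and 0.63 TPM. Nkx6-2 exceeded every gene of this list in both libraries, and Nkx2-9 did as well. Nkx2-2, Nkx6-1 and Nkx2-1 lay within the range of the list.

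Factors of intermediate and dorsal progenitors were all detected, 11 of 11, with a median of 26.13 TPM. Dbx1, a homeobox gene of intermediate progenitors, was at 158.7 and 142.8 TPM, more than any Nkx gene. Dbx2, its relative, at 1.16 and 1.28 TPM, and the dorsal gene Pax7, at 1.47 and 1.12 TPM, were the lowest of the list, and their order differed between the libraries. Msx1, a dorsal homeobox gene that is also active in the ventral midbrain, was at 126.4 and 131.5 TPM. Pax6 was at 32.94 and 34.04 TPM. All 5 Groucho family genes were detected, with Aes, a short member, at 323.4 and 240.2 TPM and Tle3 at 47.05 and 41.28 TPM. Tle2 was the lowest at 11.47 and 8.30 TPM, in each library above Nkx2-2, Nkx6-1 and Nkx2-1. In replicate 2, however, its credible interval of 7.71 to 10.9 TPM overlapped the interval of each of these Nkx genes.

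**Figure D3:**
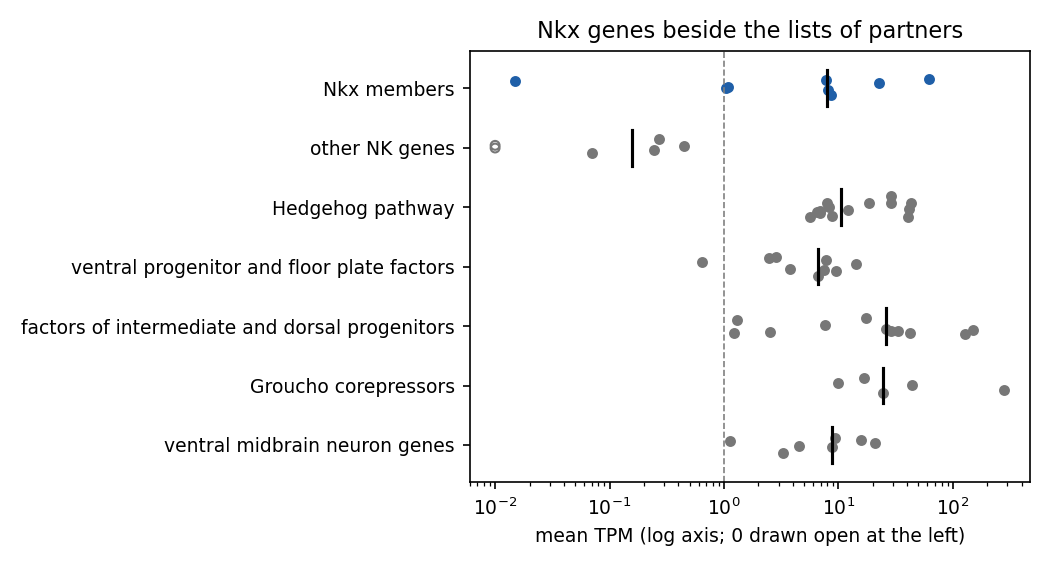
Mean TPM of the 2 libraries on a log axis for each gene of 7 groups, with the median of each group as a black bar, the dashed line at 1 TPM, and genes at 0 drawn as open circles. The Nkx genes, in blue, have a median of 8.008 TPM and run from 0.015 to 62.05 TPM, while the other NK genes all lie below 1 TPM.

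Some ventral midbrain neurons descend from progenitors that carry Nkx genes. Of 7 genes listed for ventral midbrain neurons of any descent, 6 were detected. The red nucleus factor Pou4f1 led at 21.01 and 20.77 TPM, followed by the motor neuron factor Isl1 at 17.54 and 14.02 TPM. Th, the rate-limiting enzyme of dopamine synthesis, was at 11.93 and 6.68 TPM, and Nr4a2, a factor of dopaminergic neurons, at 11.70 and 5.89 TPM. Phox2a, a factor of oculomotor neurons, was at 0.63 and 1.64 TPM.

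With 1 group, the comparison that remained was between the 2 libraries. Scaled for depth by trimmed mean of M values, counts were divided as replicate 2 over replicate 1, and a gene was taken as past the fold where they differed by 2-fold or more, where their mean TPM was 1 or more. One library stands on each side, so no p-value is given and the 95% exact interval of each ratio covers counting error only. Of all 14768 genes so examined 476 were past 2-fold, or 3.22%: 2.04% were lower in replicate 2 and 1.18% were higher. Of the 7 Nkx genes examined, 0 were past 2-fold. At a background of 3.22%, a count of 0 among 7 says nothing particular of them. The median log2 ratio was -0.23 for the 7 Nkx genes and 0.01 for all genes examined, with 3 Nkx genes above a ratio of 1 and 4 below.

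Nkx1-2 came closest, with a ratio of 0.529 (interval 0.390 to 0.708), which is 1.89-fold lower in replicate 2. Its interval reached past 2-fold, and 96.1% of genes examined had a smaller difference. Nkx6-2 had a ratio of 0.722 (0.687 to 0.760), and 86.2% of genes had a smaller difference. Nkx2-2 had a ratio of 0.761 (0.658 to 0.880) and Nkx6-1 a ratio of 0.850 (0.750 to 0.962). All 4 were thus lower in replicate 2 beyond counting error. Nkx2-9 was higher in replicate 2 beyond counting error, with a ratio of 1.21 (1.10 to 1.34). Nkx2-1, at 1.03 (0.912 to 1.16), and Nkx2-4, at 1.05 (0.710 to 1.55), had intervals that include 1. The share of all genes whose interval leaves out 1 was not computed, so these differences cannot be called particular to the Nkx genes. Over all 14768 genes examined the log2 ratio had an SD of 0.446. No fold is given for Nkx6-3, whose counts were below 3 in both libraries.

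**Figure D4:**
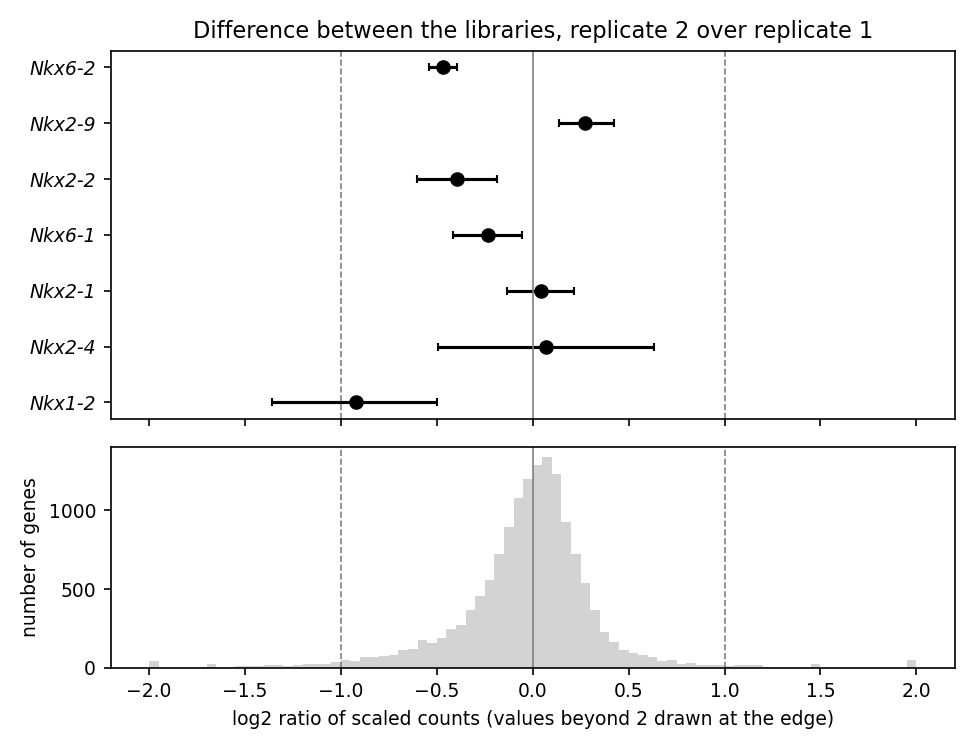
Upper panel: log2 ratio of scaled counts, replicate 2 over replicate 1, of the 7 Nkx genes whose mean reached 1 TPM, with 95% exact intervals for counting error. Lower panel: the same ratio over all 14768 genes examined, as a histogram; dashed lines mark 2-fold, which no Nkx gene passes and which 3.22% of all genes do.

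Markers of other cells also moved between the libraries. All 7 markers of newborn neurons had ratios below 1, with a median log2 ratio of -0.58 and a summed level of 1107 TPM in replicate 1 and 720.3 TPM in replicate 2. Dcx, a microtubule protein of migrating neurons, was past 2-fold at 44.54 and 19.60 TPM. Head mesenchyme markers summed to 703.3 and 483 TPM. That sum was carried by 3 collagen genes, and the transcription factors Prrx1 and Twist1 of the same list both had a ratio of 1.19, above 1 beyond counting error. Neural progenitor markers summed to 2551 and 2103 TPM, with 5 of 6 ratios below 1 and Hes1, a Notch target, at 1.46 (1.35 to 1.58). Endothelium markers summed to 89.05 and 82.11 TPM, and macrophage markers to 53.74 and 37.81 TPM. In the other direction, the 5 red cell markers summed to 11310 and 13230 TPM. Of the 5 hypothalamus and ventral forebrain markers examined, 2 were past 2-fold and higher in replicate 2: Rax, with its levels given above, and Six6 at 0.56 and 1.55 TPM. Six3, of the same list, went the other way at 6.70 and 3.41 TPM without passing 2-fold. The part of these cell types in the differences of Nkx6-2, Nkx2-2, Nkx6-1, Nkx2-9 and Nkx1-2 was not tested.

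Of the partner lists, Phox2a alone was past 2-fold, with a ratio of 2.71 (1.77 to 4.37). The Hedgehog list had 0 of 14 genes past 2-fold and a median log2 ratio of 0.08, with Gli1 at 1.42 (1.29 to 1.58), Ptch1 at 1.02 (0.972 to 1.06) and Hhip at 0.924 (0.830 to 1.03). The ventral progenitor list had 0 of 8 past 2-fold, and within it Foxa2 had a ratio of 1.25 (1.11 to 1.40) while Sim1, a factor of ventral neural cells, had 0.671 (0.608 to 0.739). All 5 Groucho genes had ratios below 1, from 0.583 for Tle2 to 0.959 for Tle3. Among the factors of intermediate and dorsal progenitors 0 of 11 were past 2-fold, with Gsx1 at 0.677 (0.587 to 0.781) and Gsx2 at 1.43 (1.10 to 1.87).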

How the data were processed

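Midbrain RNA of the 2 pools was measured as total RNA-seq from 10 ng of RNA each, extracted with mirVana and with spike-ins added, per the labels' protocols. A SMARTer Ultra Low kit manual is linked in the labels; whether strand was kept is not given in the sources used here, nor are the aligner and quantifier. Per the file headers, the deposited tables are quantifications of transcriptome alignments on mm10 with GENCODE M4. The expected counts deposited by the authors are estimates, which may hold fractions of reads. The TPM values they deposited are counts divided by effective length and scaled to 1 total per library, spike-ins included, and the deposited FPKM values were an alternative. The deposited credible bounds are a signal in TPM, of a level the headers do not state. The deposited isoform percent gives each transcript's share of its gene.

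Names, positions, transcript sequences and coding spans came from GENCODE M21 on GRCm38, the assembly of mm10; 42462 of 43346 identifiers matched, the 8 Nkx genes among them. Totals over genes were 45531621.3 and 50477633.9 expected counts. The 97 spike-in rows, with 3.39% and 3.28% of counts, and the 26248 tRNA rows stayed out of ratios. Counts were rounded, scaled by TMM factors (edgeR 4.0.16) and compared as ratios with 0.5 added, with 95% Clopper-Pearson intervals. No molecular identifiers are named in the labels, and copies made by PCR are not separate molecules: these intervals and the 3-count floors hold for counting error alone. The 2 libraries differed beyond sampling noise and were kept as 2 replicates; nothing is tested for significance. The ratio step was tested on simulated counts that held counting error alone, so that test says nothing of spread between libraries. Homeoboxes were compared as DNA, since protein sequences were not used here, in place of the planned comparison of homeodomains.

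The members and the 18 gene lists were chosen with earlier results of these data known. Named were all members, the other NK genes, neighbouring and overlapping genes, of each list the 2 highest and 2 lowest and those past 2-fold, and Shh, Foxa2, Gli1, Ptch1, Olig2, Pax6 and Otx2. Some of these are given only in counts, and some genes and sequences are not reported here. Gli3, Smo, Fezf1, Sftpc, Th, Nr4a2, Sim1, Gsx1 and Gsx2 are outside that rule and were named after their values were seen. Alternatives were other minimums and folds, DESeq2 1.42.0 size factors, total counts, ratios of TPM, posterior means, FPKM, and single replicates. The software was R 4.3.3, Python 3.11.15, scipy 1.17.1, pandas 2.3.3, numpy 2.4.6 and matplotlib 3.10.9.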

Additional observations from a re-analysis of the deposited data

How the results depend on the processing

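The count of members past 2-fold, 0 under the settings of the report, was 1 with the ratio of deposited TPM (Nkx1-2), 1 with no minimum level (Nkx6-3, on 2 and 0 counts) and 1 at 1.5-fold (Nkx1-2). It stayed at 0 with DESeq2 size factors, total counts or a mean of at least 5 TPM. The count over all genes, 476, was 5182 with no minimum, 113 with a mean of at least 5 TPM and 1423 at 1.5-fold. Of genes past 2-fold 36.6% were higher in replicate 2, against 28.5% by deposited TPM and 23.0% with a mean of at least 5 TPM. The number of members detected was 5 to 7 under other minimums, in FPKM, by posterior means or by the lower credible bound, and 6 and 7 without replicate 1 and without replicate 2. Ranks of the 8 genes by mean were the same in FPKM. Nkx2-2 was at 6.135 TPM on its coding transcripts alone, an alternative chosen after seeing the data, against 8.64 TPM. As a share of counts, the 4-exon transcript of Nkx6-2 was 71.66% and the 273-codon transcript of Nkx2-2 was 88.28%, against 62.68% and 61.67% as shares of TPM, since counts are not corrected for length. No paired analysis was possible because there is 1 group. Depth limits Nkx6-3, Nkx2-4 and Nkx1-2 and the minor transcripts of Nkx2-2, each with at most 128 counts in a library.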

Other observations

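Markers of oligodendrocytes, the later cells in which Nkx2-2 and Nkx6-2 are known to act, were uneven. Cnp, an enzyme of myelin, stood at 19.06 and 15.07 TPM. The mature myelin genes Mag, at 0.19 and 0.44 TPM, and Mog, at 0.08 and 0.13 TPM, were below 1 TPM in both libraries. Sox10, a factor of neural crest and oligodendrocytes, was at 0.46 and 2.15 TPM, a ratio of 4.93 (3.47 to 7.38, counting error only).

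Markers of hindbrain and spinal cord, regions in which several Nkx genes are also active, were low, with 1 of 8 detected. Hoxa2, a gene of the hindbrain and of cranial neural crest, was at 0.24 TPM in replicate 1 and 1.67 TPM in replicate 2, the library in which Sox10 was also higher. Hoxa3 and Hoxc6 had 0 counts in both.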
